A study of Mus musculus with 6 samples.

Results

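The genes described here are 45 members of the machinery that releases neurotransmitter from presynaptic vesicles, named in a list by their known roles and not by any measured value. All 45 were present in each of 4 deposited tables, which hold 19006 mouse genes (bulk SCRB-seq), 21987 genes (bulk SMART-Seq2), 23295 genes (plate nuclei) and 19905 genes (droplet nuclei). They comprise 9 SNARE proteins and SNARE partners, 3 complexins, 11 synaptotagmins and related calcium sensors, 9 vesicle proteins, and 13 priming and active zone proteins. The list was drawn up with earlier results of these data known.

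At a synapse, vesicles filled with transmitter dock at the active zone, a protein scaffold that holds them beside calcium channels. Zippering of the vesicle SNARE synaptobrevin with syntaxin and SNAP-25 on the plasma membrane drives fusion, complexin clamps and then promotes it, and synaptotagmin triggers it when calcium enters. Neurons differ in which synaptotagmin, complexin and Munc13 gene they use: Syt2 and Unc13c are known for the hindbrain and cerebellum, and Syt1 for the forebrain. The proteins act in axon terminals, whereas the measurements here are of RNA in isolated nuclei.

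The nuclei came from C57BL/6J mice aged 8 to 12 weeks, and every sample label names the tissue as cortex, while the extraction protocol speaks of brain. Formalin-fixed paraffin-embedded (FFPE) tissue was cut as 50 µm scrolls, and paraffin was removed in 1 of 3 ways: hot mineral oil, hot xylene (below called heated xylene), or xylene left at room temperature. Frozen tissue served as the comparator. It appears in the authors' annotation tables and not in the sample labels, so its age and strain are not stated separately, and no animal is named for any well or nucleus. Bulk wells held 10 or 100 nuclei in SCRB-seq (8 wells for each method and number, 64 in all) and 10, 50 or 100 nuclei in SMART-Seq2 (1 well each, 12 in all). The plate table of the whole series held 143 FFPE and 137 frozen single nuclei, and the droplet table held 7031 FFPE nuclei in classes named by the authors.

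Mouse counts per well ran from 7512 to 167144 in SCRB-seq, where the 8 mineral oil wells of 10 nuclei were the shallowest group (7512 to 20593), and from 270363 to 942966 in SMART-Seq2. Plate nuclei had a median of 47887 counts in FFPE and 255329 in frozen tissue, and 9 deep FFPE nuclei reached up to 4973791. Summed markers of cerebellar granule cells, given as lowest, median and highest CPM per well (counts scaled to the same mouse total in each well), were 295, 1528 and 6115 in FFPE against 0, 18.2 and 101 in frozen SCRB-seq wells. The same sums were 1510.1, 1838 and 3914 against 44.4, 62.1 and 143 in SMART-Seq2. Markers of cortical excitatory neurons ran the other way, at 95.8, 360 and 866 against 1248, 1974 and 2352 CPM in SCRB-seq and at 60.5, 272 and 386 against 1306, 1714 and 1764 CPM in SMART-Seq2. A general neuron list summed to 1198, 7119.9 and 11092 CPM in FFPE against 14252, 17070.5 and 20366 CPM in frozen SCRB-seq wells, and to 5135, 7296 and 8685 against 16137, 22081 and 26765 CPM in SMART-Seq2, with no overlap in either. Genes of this list did not move together (log2 fold change, FFPE minus frozen, edgeR adjusted p under 0.05). In SCRB-seq Meg3 (-1.81) and Snhg11 (-1.39) were lower and Stmn2 (0.94) was higher, while Rbfox3 (0.02) and Celf4 (-0.14) did not pass. SMART-Seq2 gave the same calls, with Meg3 at -1.85, Snhg11 at -2.94 and Stmn2 at 2.04. The inhibitory marker Gad1 was higher by 2.53 in SCRB-seq and did not pass in SMART-Seq2 (2.72). Median sums of oligodendrocyte markers were 1199.8 against 362 CPM in SCRB-seq and 1365 against 129 CPM in SMART-Seq2, and those of astrocyte markers 1253 against 517 CPM and 1479 against 524 CPM, with overlapping ranges. The part of these shifts in the members' differences was not tested. Every FFPE minus frozen difference below therefore sits beside a shift in cell markers, and fixation and brain region cannot be told apart. In bulk wells fewer cells of a type and less RNA per cell cannot be told apart either. Wells of 1 kind may come from 1 preparation, so p-values measure only the spread between wells.

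Before the values, the promoters of 4 members are shown, chosen after their values were seen because each differed between FFPE and frozen wells in both bulk assays. Stx1a and Rimbp2 were lower in FFPE, and Syt2 and Unc13c were higher. Each sequence is the RefSeq promoter window of 300 bases (250 before and 50 after the annotated start), written 5′ to 3′ on the gene's strand. Capitals mark matches to GGGCGG, the GC box core, or to its reverse complement CCGCCC.
Stx1a promoter, GRCm38.p6 chr5:135023232-135023531, plus strand: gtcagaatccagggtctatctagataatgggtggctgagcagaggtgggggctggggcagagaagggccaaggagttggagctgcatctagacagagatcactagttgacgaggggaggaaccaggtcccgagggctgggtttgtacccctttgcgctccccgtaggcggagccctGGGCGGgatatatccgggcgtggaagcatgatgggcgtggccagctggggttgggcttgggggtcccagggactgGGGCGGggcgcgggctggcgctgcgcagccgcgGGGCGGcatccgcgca
Rimbp2 promoter, GRCm38.p6 chr5:128953437-128953736, minus strand: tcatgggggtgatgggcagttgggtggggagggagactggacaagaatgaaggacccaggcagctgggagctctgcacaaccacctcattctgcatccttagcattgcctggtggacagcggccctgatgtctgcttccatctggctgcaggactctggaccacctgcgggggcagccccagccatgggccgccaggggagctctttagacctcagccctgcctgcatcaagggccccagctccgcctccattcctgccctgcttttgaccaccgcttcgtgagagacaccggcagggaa
Syt2 promoter, GRCm38.p6 chr1:134646362-134646661, plus strand: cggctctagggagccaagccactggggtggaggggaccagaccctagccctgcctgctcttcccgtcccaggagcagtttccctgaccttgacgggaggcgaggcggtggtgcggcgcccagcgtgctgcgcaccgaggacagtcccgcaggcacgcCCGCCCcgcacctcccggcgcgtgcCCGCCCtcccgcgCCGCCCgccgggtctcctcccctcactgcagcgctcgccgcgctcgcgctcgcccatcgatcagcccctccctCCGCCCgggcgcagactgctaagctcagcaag
Unc13c promoter, GRCm38.p6 chr9:73968988-73969287, minus strand: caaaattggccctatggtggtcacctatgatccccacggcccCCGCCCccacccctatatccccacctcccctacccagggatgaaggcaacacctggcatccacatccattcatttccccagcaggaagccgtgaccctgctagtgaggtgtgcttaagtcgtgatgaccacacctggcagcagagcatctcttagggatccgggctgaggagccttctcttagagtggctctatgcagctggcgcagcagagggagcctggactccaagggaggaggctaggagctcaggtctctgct
Of the 45 members, 37 had a promoter in the RefSeq table, and 26 of these (70.3%) held GGGCGG on either strand, against 35.7% of all 32851 promoters of that length. For each member the promoter nearest its GENCODE gene start was taken. The 32851 include every promoter listed, so members and background were picked by different rules. A TATA box core (TATAAA, either strand) was in 1 of the 37, Sv2b, against 13.6% of all promoters. The cAMP response element TGACGTCA, whose reverse complement is itself, was also in 1, Syn1, against 1.79%. The pair lower in FFPE and the pair higher in FFPE were not set apart by the GC box: Stx1a held 3 matches and Rimbp2 held 0, while Syt2 held 4 and Unc13c held 1. GC content was 66.3% for Stx1a, 62.7% for Rimbp2, 74.3% for Syt2 and 59.3% for Unc13c. A match to these letters is a description and does not show binding.

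The first comparison asked how release genes in FFPE wells compared with frozen wells in SCRB-seq, a method that tags the 3′ ends of transcripts. As a set the genes held much the same share of the RNA: members made up 0.394 to 2.42% of mouse counts in FFPE wells (median 1.22%, n = 48) and 1.16 to 1.61% in frozen wells (median 1.32%, n = 16). Within that share the makeup differed, with 7 members higher and 7 lower in FFPE among the 26 that had enough counts to test (edgeR quasi-likelihood test, Benjamini-Hochberg adjusted p under 0.05). Over all 1478 genes tested, 58.0% were called (30.2% higher, 27.7% lower), so 14 of 26 is close to the background, and the median log2 fold change was 0.09 for members and 0.00 for all genes. With DESeq2 size factors the median of all genes moved to -0.58, and the members split 4 higher and 11 lower. The split was 5 and 12 of 40 tested at a minimum count of 3, 9 and 8 of 34 in wells of 100 nuclei alone, and 1 (Stxbp5l) and 5 of 18 in wells of 10 nuclei alone. With size factors, all genes split 309 higher and 674 lower of 1478 (66.5% called). At a minimum count of 3 all genes split 857 and 1239 of 5430 (38.6%). The split of all genes was 608 and 511 of 2440 in wells of 100 nuclei (45.9%), and 247 and 231 of 783 in wells of 10 (61.05%). Of the members that kept their call in every alternative that tested them, 4 were higher (Syt2, Cplx1, Unc13c and Stxbp5l) and 5 were lower (Rimbp2, Syt7, Syn1, Cadps and Syt1). The other 5 calls were lost in at least 3 alternatives each.

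**Figure D1:**
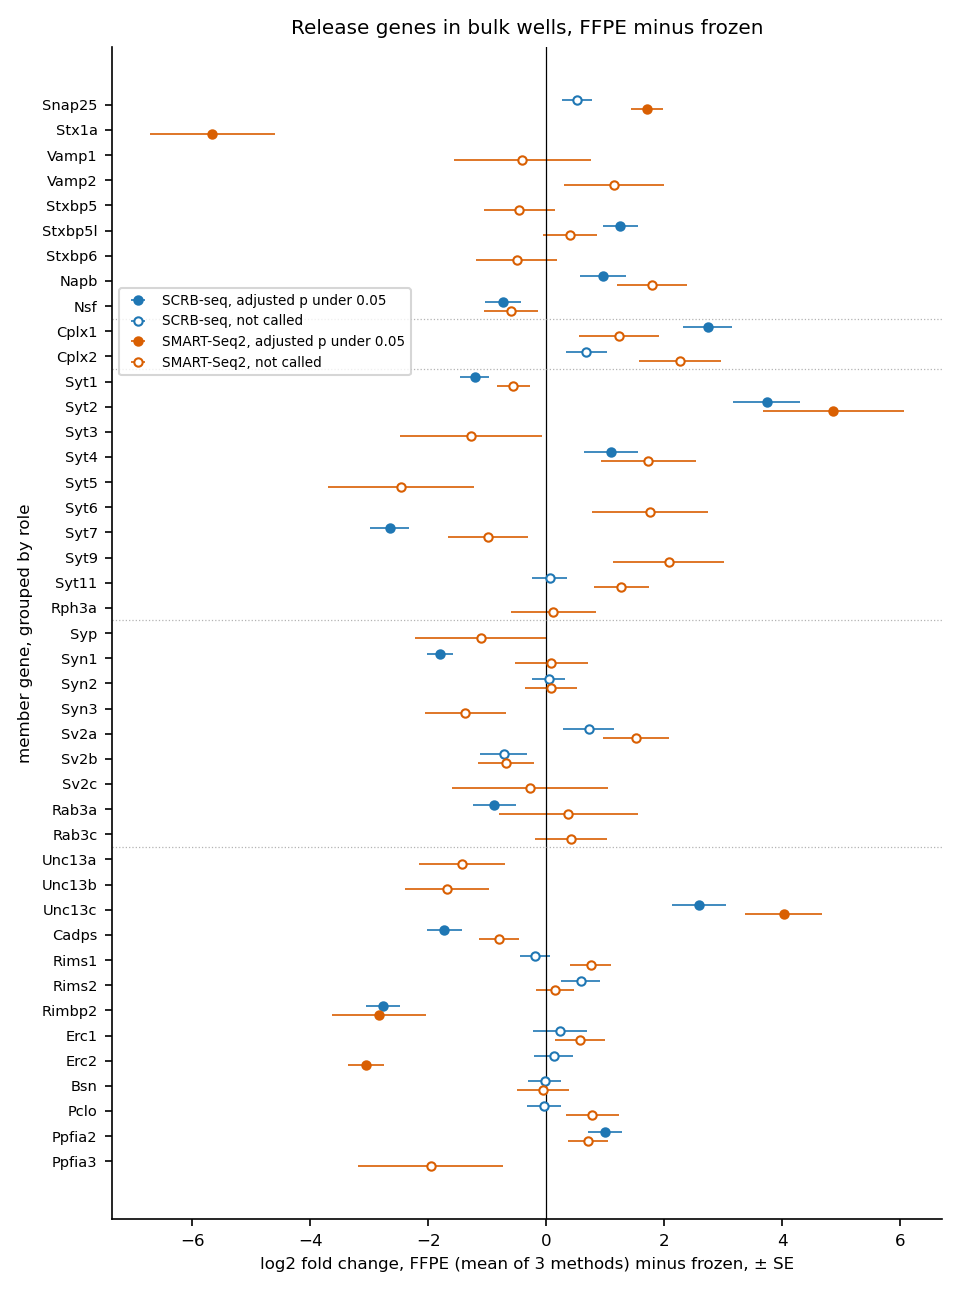
Log2 fold change of each tested member, FFPE (mean of the 3 methods) minus frozen, with its standard error as a bar, in SCRB-seq (blue) and SMART-Seq2 (orange). Filled points have an adjusted p under 0.05. Syt2 and Unc13c lie far right and Rimbp2 far left in both assays, while Erc2 lies near 0 in SCRB-seq and at -3.06 in SMART-Seq2.

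Among the SNARE proteins and their partners, 4 of 9 were tested, of which 2 were higher and 1 was lower. Stxbp5l, which encodes the syntaxin-binding inhibitor tomosyn-2, had a lowest, median and highest level of 62.4, 394 and 2086 CPM in FFPE wells against 0, 189 and 329 CPM in frozen wells. Its log2 fold change was 1.25 (SE 0.29, edgeR adjusted p = 0.0001744), although the ranges overlapped. Napb, the neuronal NSF adaptor β-SNAP, was higher by 0.95 (SE 0.39, edgeR adjusted p = 0.031) and lost its call in 6 of 8 alternatives. Nsf, the ATPase that takes spent SNARE complexes apart, fell by 0.73 (SE 0.30, edgeR adjusted p = 0.0335) and lost its call in 3 of 8. Snap25, a core SNARE and one of the most abundant members, ranged over 0, 1094 and 2801 CPM in FFPE and 594, 769 and 1171 CPM in frozen wells, and its log2 fold change of 0.51 did not pass (edgeR adjusted p = 0.0789). In wells of 100 nuclei alone it was higher by 0.76 (SE 0.16, edgeR adjusted p = 0.0001853), and in wells of 10 nuclei it was at -0.22 (edgeR adjusted p = 0.559).

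Stx1a, the plasma membrane SNARE syntaxin 1A (ENSMUSG00000007207, chr5:135023482-135051100 on mm10), was too sparse in FFPE to enter the main test. Its lowest, median and highest levels were 0, 16.4 and 96.2 CPM in FFPE against 118, 209.8 and 423 CPM in frozen wells. The 48 FFPE wells therefore all lay below the 16 frozen wells, and 19 of the FFPE wells had no count. Summed over wells the level was 30.2 CPM in FFPE and 239 CPM in frozen tissue, 7.92-fold higher in frozen. When the minimum count was lowered to 3, Stx1a entered the test with a log2 fold change of -3.43 (SE 0.34, edgeR adjusted p = 1.338e-14). In the same setting Syt5 (-2.26, edgeR adjusted p = 8.842e-05), Syp (-1.88, 0.0006485), Unc13a (-1.73, 7.604e-05) and Unc13b (-1.46, 0.0007223) also entered the test and were called lower.

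Of the complexins, small proteins that bind assembled SNAREs, Cplx1 rose and Cplx2 did not pass. Cplx1 had 0, 171 and 622 CPM in FFPE against 0, 16.0 and 106 CPM in frozen wells, a log2 fold change of 2.73 (SE 0.41, edgeR adjusted p = 3.359e-08). Cplx1 was absent from 7 of the 16 frozen wells and from 1 of the 48 FFPE wells. Cplx2, the main forebrain complexin, had 0, 352 and 1174 CPM in FFPE against 0, 183 and 965 CPM in frozen wells. In wells of 100 nuclei alone Cplx2 was higher by 1.37 (SE 0.24, edgeR adjusted p = 8.924e-06), and in wells of 10 nuclei it was at -1.02 (edgeR adjusted p = 0.0883).

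The calcium sensors were divided, with 2 higher and 2 lower of 5 tested. Syt2, a fast sensor of synchronous release (ENSMUSG00000026452, chr1:134646677-134762593), had 0, 128 and 884 CPM in FFPE against 0, 4.08 and 56.8 CPM in frozen wells. Its log2 fold change of 3.74 was the largest increase among the tested members (SE 0.57, edgeR adjusted p = 4.266e-08), and no frozen well exceeded 56.8 CPM. Syt1, the fast sensor of forebrain synapses and the member with the most counts, fell by 1.21 (SE 0.24, edgeR adjusted p = 1.644e-05), from 977, 2419 and 3073 CPM in frozen wells to 0, 1071 and 2530.3 CPM in FFPE. Syt7, a high-affinity sensor of asynchronous release, fell by 2.66 (SE 0.34, edgeR adjusted p = 2.034e-10), from 213, 345 and 625 CPM to 0, 22.4 and 465 CPM. Syt4, a synaptotagmin of dense-core vesicles, was higher by 1.10 (SE 0.46, edgeR adjusted p = 0.0355) and lost its call in 3 of 7 alternatives.

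Of 5 vesicle proteins tested, 2 were lower and none was higher, with 2 of the 5 at an unadjusted p under 0.05. In wells of 100 nuclei alone, Sv2a was higher by 1.25 (edgeR adjusted p = 0.00108), and with DESeq2 size factors Sv2b was lower at -1.28 (edgeR adjusted p = 0.00543). Syn1, the phosphoprotein synapsin I that tethers vesicles in the reserve pool, had 0, 243 and 566 CPM in FFPE against 593, 766 and 1481 CPM in frozen wells. The groups did not overlap, and the log2 fold change was -1.81 (SE 0.22, edgeR adjusted p = 6.322e-11). Rab3a, the vesicle GTPase bound by RIM, had 0, 74.3 and 497 CPM against 47.9, 182 and 541 CPM and fell by 0.88 (SE 0.37, edgeR adjusted p = 0.0361), a call lost in 3 of 7 alternatives.

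At the active zone, 2 of 10 tested members were higher and 2 lower. Unc13c, which encodes the priming factor Munc13-3 (ENSMUSG00000062151, chr9:73479422-73968966), had 0, 213 and 994 CPM in FFPE against 0, 49.9 and 170.3 CPM in frozen wells, a log2 fold change of 2.59 (SE 0.46, edgeR adjusted p = 1.545e-06). Rimbp2, the RIM-binding protein that links the scaffold to calcium channels (ENSMUSG00000029420, chr5:128757791-128953486), had 0, 36.0 and 282 CPM against 222, 392 and 560.0 CPM, a log2 fold change of -2.76 (SE 0.29, edgeR adjusted p = 1.762e-13). Cadps, the priming factor CAPS1 of dense-core vesicles, had 0, 189 and 880.3 CPM against 433, 685 and 1534 CPM and fell by 1.73 (SE 0.30, edgeR adjusted p = 7.088e-07). Ppfia2, a liprin-α scaffold protein, was higher by 1.00 (SE 0.29, edgeR adjusted p = 0.00219), at 49.9, 543 and 2087 CPM against 0, 248 and 686 CPM, and lost its call in 3 of 8 alternatives. The large scaffold genes Bsn, Pclo, Rims1 and Rims2 did not pass. With DESeq2 size factors in edgeR, Rims1 (-0.74, adjusted p = 0.0123), Pclo (-0.65, adjusted p = 0.0372) and Bsn (-0.61, adjusted p = 0.0463) were called lower.

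**Figure D2:**
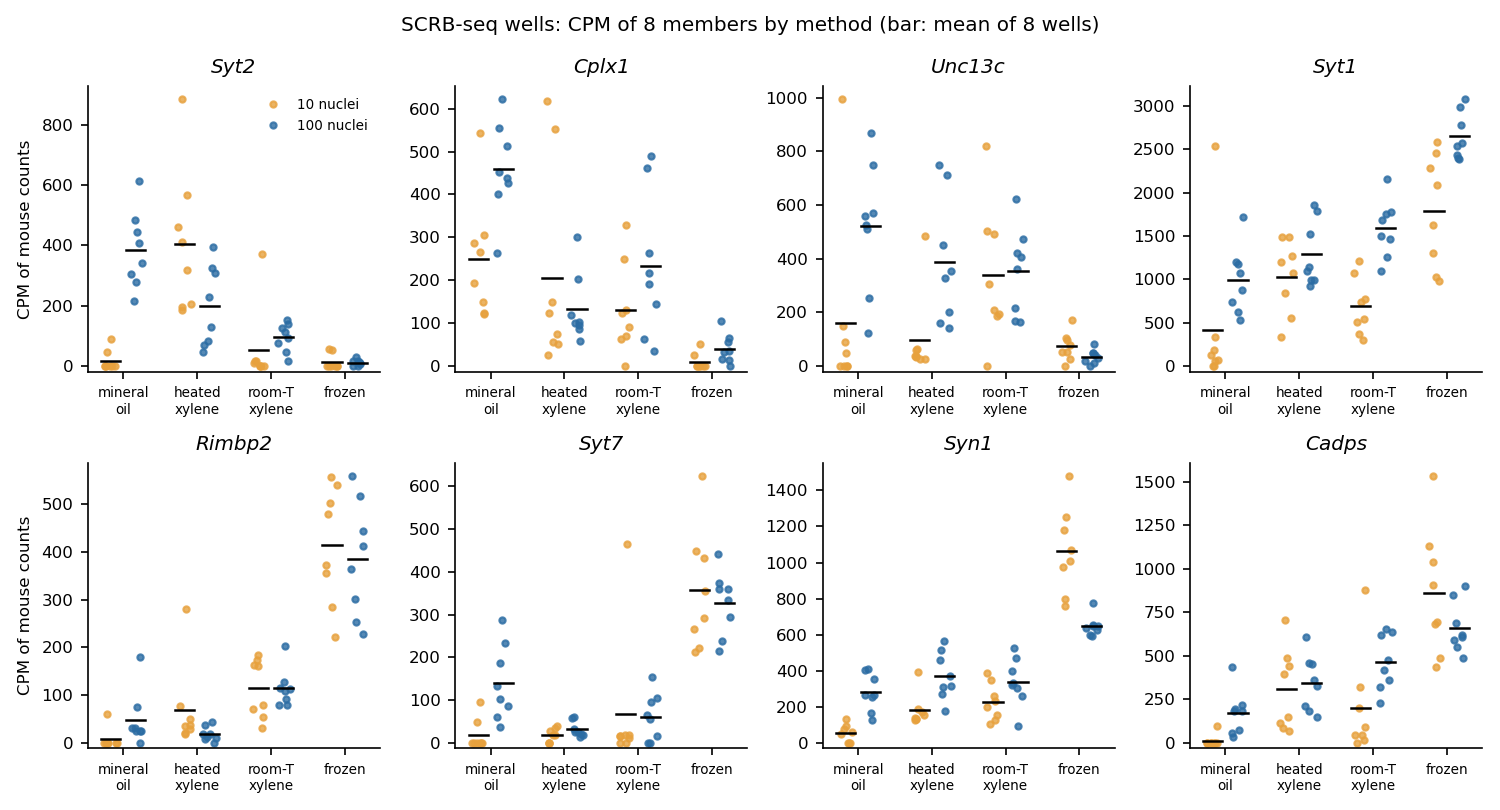
CPM in each SCRB-seq well for 8 members, by method, with wells of 10 nuclei in orange and of 100 nuclei in blue and a bar at the mean of each 8 wells. Syn1 shows frozen wells above all FFPE wells, and for Syt2 no frozen well exceeds 56.8 CPM while FFPE wells reach 884 CPM.

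Each method set alone against frozen wells gave similar counts. Mineral oil called 6 members higher and 5 lower, against 55.1% of the 1478 genes (25.6% higher, 29.6% lower). Heated xylene called 6 and 6, against 50.3% (30.2% and 20%). Room-temperature xylene called 9 and 6, against 49.5% (30.0% and 19.6%). Members called here and not for the mean of the methods were Erc1 with oil (1.70, SE 0.55, edgeR adjusted p = 0.00649), and Cplx2 (0.93, SE 0.41, edgeR adjusted p = 0.0496) and Sv2b (-1.64, SE 0.52, edgeR adjusted p = 0.00625) with heated xylene. With room-temperature xylene they were Sv2a (1.18, SE 0.51, edgeR adjusted p = 0.0447) and Snap25 (0.76, SE 0.30, edgeR adjusted p = 0.0303). These contrasts share the frozen wells and are not independent of each other.

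Related genes outside the list were counted for context. Of 32 other release genes 8 were tested, with 4 higher (Ppfia4 by 1.47, Lin7a by 1.42, Synpr by 1.34 and Cadps2 by 0.83). Of 19 vesicle endocytosis genes 10 were tested, with Sh3gl2 higher by 1.54 and Pacsin1 lower at -0.66, and the only transmitter loading gene tested of 10 did not pass. These log2 fold changes come from the same edgeR fit at adjusted p under 0.05. Beside them, 6 of 6 tested granule cell markers were higher and 3 of 3 tested cortical excitatory markers were lower in FFPE, and their part in the members' differences was not tested.

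SMART-Seq2, which reads whole transcripts, gave the same question a second set of wells: 9 FFPE and 3 frozen. Of 43 members tested, 3 were higher and 3 were lower, against 4.09% called among all 9092 genes tested (1.45% higher, 2.64% lower). At an unadjusted p under 0.05 there were 16 members, against 14.8% of all genes. The median log2 fold change was 0.08 for members and -0.13 for all genes. Members made up 1.32 to 2.54% of counts in FFPE wells (median 1.80%) and 1.37 to 1.53% in frozen wells (median 1.38%), and 8 of the 9 FFPE wells lay above all 3 frozen wells.

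Snap25 (ENSMUSG00000027273, chr2:136713453-136782428) had 741, 769 and 656 CPM in the frozen wells of 100, 50 and 10 nuclei. In the same order it had 2770.0, 2492 and 1700.0 CPM with heated xylene, 3090.0, 3355 and 2419.9 CPM with xylene at room temperature, and 3216, 3134 and 3307 CPM with mineral oil. All 9 FFPE wells lay above the 3 frozen wells, with a log2 fold change of 1.70 (SE 0.27, edgeR adjusted p = 0.000277). Unc13c likewise stood clear of the frozen wells, at 53.6, 48.1 and 7.86 CPM in frozen tissue against 876, 564 and 142 CPM with heated xylene, 611, 760.3 and 428 CPM at room temperature, and 1152, 828 and 1173 CPM with oil. Its log2 fold change was 4.02 (SE 0.65, edgeR adjusted p = 0.000409).

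Syt2 was at 6.43, 11.1 and 0 CPM in frozen wells, from 3, 3 and 0 counts. It was at 148, 205 and 138 CPM with heated xylene, 224, 205 and 4.06 CPM at room temperature, and 162, 154 and 377 CPM with oil. One FFPE well, room-temperature xylene with 10 nuclei, fell within the frozen range, and the log2 fold change of 4.87 (SE 1.201, edgeR adjusted p = 0.0186) lost its call when the frozen well of 100 or of 10 nuclei was left out (adjusted p up to 0.125). Pooled over wells, Syt2 was 48.0-fold higher in FFPE.

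Erc2, which encodes the active zone scaffold CAST (ENSMUSG00000040640, chr14:27622428-28478537), went the other way. It had 1961, 1842 and 2422 CPM in frozen wells, 422, 559 and 439 CPM with heated xylene, 575, 509.8 and 376 CPM at room temperature, and 131, 71.0 and 139 CPM with oil. All FFPE wells lay below the frozen wells, and the log2 fold change was -3.06 (SE 0.30, edgeR adjusted p = 7.327e-07). Rimbp2 had 300.004, 514 and 373 CPM in frozen wells, 54.7, 119 and 8.48 CPM with heated xylene, 108, 24.7 and 179 CPM at room temperature, and 12.1, 0 and 107 CPM with oil. It did not overlap either, but its log2 fold change of -2.84 (SE 0.80, edgeR adjusted p = 0.0417) lost its call in 8 of 17 alternatives (adjusted p up to 0.237), each of them with 1 well left out: the frozen well of 100, 50 or 10 nuclei, the heated xylene well of 100 or 10, the room-temperature well of 100 or 50, or the oil well of 100.

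Stx1a had 137, 133 and 169 CPM in frozen wells, 15.8, 21.7 and 12.7 CPM with heated xylene, 24.5, 10.6 and 0 CPM at room temperature, and 0 CPM in all 3 oil wells. The call passed (edgeR adjusted p = 0.0022), and pooled over wells the level was 154 CPM in frozen tissue against 10.3 CPM in FFPE, 15.02-fold higher in frozen. Against the oil wells alone it was at least 86.2-fold higher in frozen, taking 3 counts over the group (1.79 CPM) as the floor. Counting-error limits of this kind treat reads as independent molecules, which PCR copies are not.

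Method by method in SMART-Seq2, the 3 oil wells called 3 members higher and 2 lower than the 3 frozen wells, against 2.52% of the 9092 genes (1.22% higher, 1.3% lower). Heated xylene called 2 higher and 1 lower, against 1.0% (0.759% and 0.242%), and room-temperature xylene 2 and 1, against 1.53% (0.88% and 0.649%). All 3 contrasts share the frozen wells.

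Rimbp2, Syt2 and Unc13c were called in the same direction in both assays, and Stx1a was lower in FFPE in both. For other members the size differed: Cplx1 was at 2.73 in SCRB-seq and 1.24 in SMART-Seq2, Syn1 at -1.81 and 0.09, and Erc2 at 0.14 and -3.06. The difference between assays was not tested. For Erc2, the SCRB-seq wells of 100 nuclei alone gave -1.12 (SE 0.23, edgeR adjusted p = 7.222e-05), and those of 10 nuclei 0.75 (SE 0.42, edgeR adjusted p = 0.114). Of the related genes, 2 of 24 tested release genes were higher (Lin7a by 3.06 and Ppfia4 by 3.01), 1 was lower (Syt16, -3.52), and none of 17 endocytosis or 7 loading genes was called, with 3 and 0 of them at an unadjusted p under 0.05. Granule markers were higher in 7 of 7 tested, and excitatory markers lower in 3 of 5.

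The deparaffinization methods were then compared with each other. In SCRB-seq 23 members were tested among 1080 genes. Heated mineral oil minus heated xylene called 2 members against 8.52% of genes (1.57% higher, 6.94% lower), heated minus room-temperature xylene 1 against 1.94% (1.02% higher, 0.926% lower), and oil minus room-temperature xylene 3 against 10.3% (2.5% higher, 7.78% lower). Syt2 was higher with heated than with room-temperature xylene by 2.02 (SE 0.53, edgeR adjusted p = 0.0214) and with oil than with room-temperature xylene by 1.60 (SE 0.53, edgeR adjusted p = 0.0397). The median of Syt2 in wells of 100 nuclei was 374 CPM with oil, 179 CPM with heated xylene, 103 CPM with room-temperature xylene and 12.2 CPM in frozen wells, and in wells of 10 nuclei it was 0, 365, 5.68 and 0 CPM. The order of methods thus changed with the number of nuclei, and the heated minus room-temperature call was lost with DESeq2 size factors and in wells of 100 nuclei alone (edgeR adjusted p up to 0.133). The oil minus room-temperature call of Syt2 was lost with DESeq2 size factors and with nuclei number as a covariate (edgeR adjusted p up to 0.0764).

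Cadps was lower with oil than with heated xylene (log2 fold change -1.60, SE 0.49, edgeR adjusted p = 0.026) and than with room-temperature xylene (-1.64, SE 0.49, edgeR adjusted p = 0.0195). Without the oil wells of 10 nuclei both Cadps calls were lost, and the first was also lost in wells of 100 nuclei alone (edgeR adjusted p up to 0.253 and 0.191). Erc1, the ELKS scaffold gene, was higher with oil by 2.83 (SE 0.66, edgeR adjusted p = 0.00255) and 1.91 (SE 0.63, edgeR adjusted p = 0.0387). Erc1 rested on few wells: oil wells of 10 nuclei ranged from 0 to 5272 CPM with a median of 231 CPM and 96 counts in all, and in wells of 100 nuclei alone oil minus room-temperature xylene was -0.068 (edgeR adjusted p = 0.957) and oil minus heated xylene 0.58. Both Erc1 calls were lost there and without the oil wells of 10 nuclei (edgeR adjusted p up to 0.573 for oil minus heated xylene). The oil minus room-temperature call was also lost with DESeq2 size factors, the DESeq2 Wald test and no filter, and so was not kept in 5 of 8 alternatives. Method and nuclei number together define the wells' pools, so a pool and its condition cannot be told apart. In SMART-Seq2, edgeR called 0 of 42 members and 0 of 8372 genes in each of the 3 contrasts (0.0%). At an unadjusted p under 0.05 there were 3, 2 and 4 members for oil minus heated xylene, heated minus room-temperature xylene and oil minus room-temperature xylene, among 314, 199 and 379 genes. The DESeq2 Wald test called 16, 1 and 20 genes and 0 members.

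Whether the FFPE minus frozen difference depended on the number of nuclei in a well was tested as an interaction in SCRB-seq. Of 33 members tested, 7 were called, 6 with a more positive difference at 100 than at 10 nuclei and 1 with a more negative one, against 16.6% of 2511 genes (14.6% positive, 2.03% negative). The median was 0.60 for members and 0.53 for all genes, and DESeq2 size factors moved the latter to 0.99 and the count to 11 members. The positive ones were Sv2a (3.19, SE 0.86, edgeR adjusted p = 0.00812), Rab3a (3.15, SE 0.82, edgeR adjusted p = 0.00621), Rph3a (2.33, SE 0.81, edgeR adjusted p = 0.0383), Cplx2 (2.30, SE 0.56, edgeR adjusted p = 0.00393), Syn1 (1.95, SE 0.38, edgeR adjusted p = 0.000499) and Cadps (1.88, SE 0.64, edgeR adjusted p = 0.0332). Erc2 was the negative one (-1.998, SE 0.50, edgeR adjusted p = 0.00426).

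In the 8 shallow oil wells of 10 nuclei Sv2a, Rab3a and Rph3a had 0 counts, Cadps 1, Cplx2 2 and Syn1 5, while Erc2 had 433 counts and a median of 3520.0 CPM. Without the oil wells of 10 and 100 nuclei, 2 members were called of 32 tested, against 5.63% of 2185 genes: Syn1 (1.23, SE 0.36, edgeR adjusted p = 0.0265) and Erc2 (-1.82, SE 0.48, edgeR adjusted p = 0.0161). For Erc2 the FFPE median was 785 CPM at 100 nuclei and 2019.7 CPM at 10 nuclei, while the frozen median was 1488 and 1328 CPM. For Syn1 it was 317 and 133 CPM in FFPE, and 639.9 and 1039 CPM in frozen wells.

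Single nuclei sorted into plates and read by SMART-Seq2 form 1 sample per arm, so ratios of pooled CPM are given without a test. A gene was counted when it had at least 20 CPM in either arm and was past the threshold at a 2-fold ratio. Of 43 members so measured 20 were past it, 6 higher and 14 lower in FFPE, against 60.4% of 9088 genes (26.2% higher, 34.2% lower). The median log2 ratio was -0.65 for members and -0.25 for all genes. Both depended on which FFPE nuclei were used and on the weight of each nucleus. Without the 9 deep FFPE nuclei, members split 8 higher and 7 lower (median -0.25, all genes -0.24). With equal weight per nucleus the split was 10 and 10 (median 0.18, all genes -0.02), and thinned to 10000 counts it was 9 and 10 (median 0.14, all genes -0.02). With batch 1 nuclei as FFPE, 28 of 43 members were past 2-fold, 11 higher and 17 lower (median -0.52, all genes -0.37). The authors' annotation gives the left hemisphere for all FFPE and the right for all frozen plate nuclei, on separate plates, so fixation, hemisphere and plate cannot be told apart. Intervals in this section are exact Poisson or exact binomial 95% intervals and cover counting error only.

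Pooled values of FFPE against frozen nuclei include the 9 deep FFPE nuclei and give them most of the weight. All 143 FFPE nuclei held 23616215 counts, and the 134 without the 9 deep ones held 10094688. The 5 largest ratios in FFPE were those of Syt9, Syt2, Syt6, Unc13c and Rab3c. Syt9, a fast sensor of limbic neurons, was at 50.4 CPM (interval 47.6 to 53.4) against 3.33 CPM (2.90 to 3.82) in frozen nuclei. Syt2 was at 130.4 against 10.1 CPM, and Unc13c at 352 against 63.8 CPM. Syt6 was at 245 against 22.7 CPM, and the vesicle GTPase gene Rab3c at 292 against 87.7 CPM.

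Because frozen nuclei were read more deeply, each nucleus was also thinned to 10000 counts, which left out 8 FFPE and 10 frozen nuclei. Syt9 was then seen in 21.5% of FFPE and 1.57% of frozen nuclei, against 37.8% and 16.1% unthinned. Syt2 was seen in 28.1% and 6.30% (43.4% and 21.9% unthinned), and Unc13c in 49.6% and 20.5% (65.7% and 51.8% unthinned). Syt6 was seen in 11.9% and 12.6% of thinned nuclei, against 22.4% and 35.8% unthinned, and its pooled ratio therefore did not go with a larger share of nuclei.

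The 5 largest ratios toward frozen nuclei were those of Rimbp2 (48.6 CPM in FFPE against 387 CPM in frozen), Stx1a (7.96 against 57.1 CPM), Syt3 (22.9 against 80.4 CPM), Syp (18.5 against 56.6 CPM) and Ppfia3 (15.6 against 46.9 CPM). Syt3 encodes a high-affinity sensor, Syp the vesicle marker synaptophysin and Ppfia3 another liprin-α. Rimbp2 was seen in 14.1% of thinned FFPE and 52.0% of thinned frozen nuclei, and Stx1a in 4.44% and 24.4%. Unthinned, the shares were 35.7% and 78.1% for Rimbp2 and 10.5% and 48.9% for Stx1a. Syp did not keep its direction: its log2 ratio was -1.62 from pooled counts, and 1.39 when each nucleus had the same weight. Cplx3, the complexin of ribbon synapses, fell under the 20 CPM minimum, with 1 count in FFPE (0.0423 CPM, interval 0.00107 to 0.236) against 18.3 CPM in frozen nuclei.

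Pooled levels of the 5 most abundant members were all within 2-fold. Syt1 was at 1443 CPM in FFPE and 1512 CPM in frozen nuclei, Syt11 at 891 and 905 CPM, Snap25 at 818 and 627 CPM, Cadps at 547 and 595 CPM, and Erc2 at 876 and 1274 CPM. A single nucleus held 50.3% of the FFPE counts of Syt1 and 55.8% of those of Rimbp2. In thinned nuclei Snap25 was seen in 84.4% of FFPE and 74.0% of frozen nuclei, and Erc2 in 40.0% and 81.9%, against 95.8% and 89.1% for Snap25 and 50.3% and 94.9% for Erc2 unthinned. Thinned shares were 74.1% and 85.0% for Syt1, 50.4% and 80.3% for Syt11, and 41.5% and 75.6% for Cadps (83.9% and 94.9%, 61.5% and 91.2%, and 59.4% and 87.6% unthinned). Summed granule markers were at 1093 CPM in FFPE and 75.3 CPM in frozen nuclei, and excitatory markers at 571 and 2292 CPM; their part in these ratios was not tested.

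**Figure D3:**
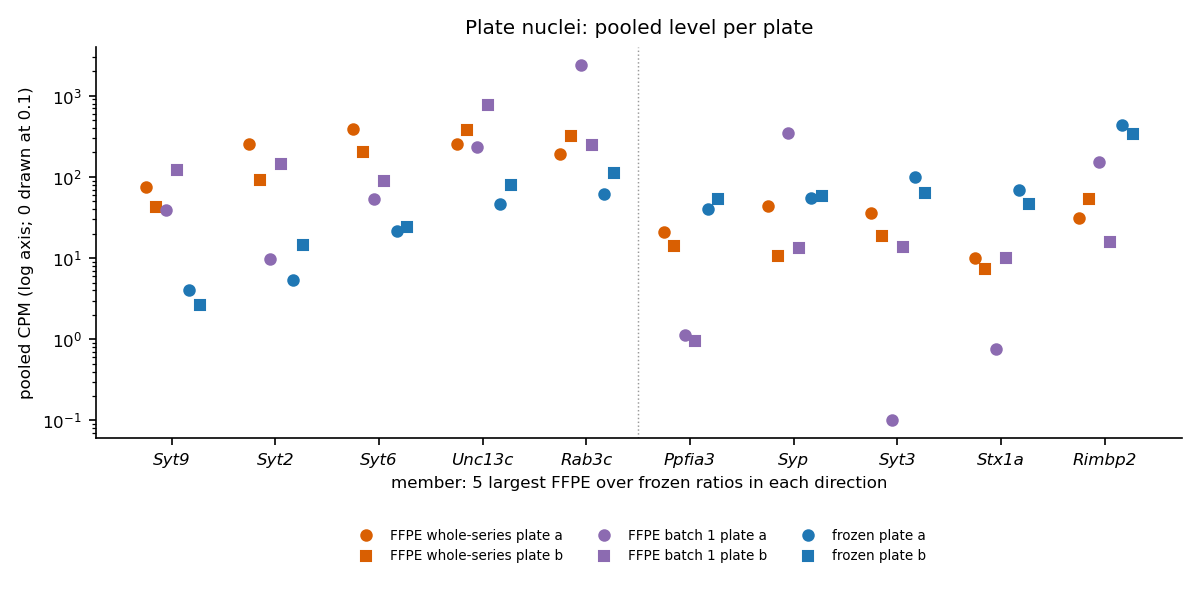
Pooled CPM (log axis, 0 drawn at 0.1) on each of 4 FFPE and 2 frozen plates for the members with the 5 largest ratios in each direction; purple points are FFPE plates of batch 1, orange points FFPE plates of the whole-series table. Rab3c, Syt6, Syt9 and Unc13c lie above both frozen plates on all 4 FFPE plates, and Ppfia3, Rimbp2, Stx1a and Syt3 lie below both.

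By plate, 4 of the 45 members (Rab3c, Syt6, Syt9 and Unc13c) lay above both frozen plates on all 4 FFPE plates, against 5.14% of 10969 genes. Another 11 lay below both (Bsn, Cplx2, Cplx3, Erc2, Ppfia3, Rimbp2, Stx1a, Sv2b, Syn1, Syn2 and Syt3), against 22.9% of genes. Syt2 was not among the first group, since 1 plate of batch 1 had 9.75 CPM, within the frozen plates' 5.32 and 14.6 CPM.

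FFPE batches also differed among themselves. Batch 2 (134 nuclei, which are also 134 of the 143 FFPE nuclei above) and batch 1 (98 nuclei) differed 2-fold for 22 of 42 members, 15 higher and 7 lower in batch 2, against 68.4% of 8550 genes (36.1% higher, 32.4% lower). The largest ratios were those of Vamp1 (78.7 CPM in batch 2 against 0.115 CPM, from 2 counts, interval 0.0139 to 0.416), Doc2b (33.3 against 0.461 CPM), Syt5 (162 against 5.99 CPM), Sv2c (187 against 14.7 CPM) and Rab3a (278 against 36.0 CPM). Vamp1 encodes the synaptobrevin known for hindbrain and spinal cord, and Doc2b a sensor of spontaneous release. Several rested on few nuclei: a single nucleus held 77.9% of the batch 1 counts of Syt5, and Doc2b was seen in 8 nuclei of batch 2. In the other direction were Stxbp5l (110.3 against 452 CPM), Syt4 (12.6 against 43.8 CPM), Rims2 (284 against 645 CPM), Pclo (211 against 478 CPM) and Syp (29.9 against 64.3 CPM). Unc13c was at 369.8 and 683 CPM, so both batches lay above the frozen 63.8 CPM. Summed markers also differed between batch 2 and batch 1: endothelial markers were at 1362 and 335 CPM, Purkinje cell markers at 103 and 12.6 CPM, excitatory markers at 938 and 438 CPM, and astrocyte markers at 1614 and 908 CPM. Granule markers were at 1433 and 1608 CPM. Their part in the ratios was not tested.

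In droplet nuclei the authors' classes allowed neurons (6 classes named ExNeuron1 to ExNeuron6, 5580 nuclei) to be set beside non-neuronal classes (1404 nuclei; the 47 nuclei named fibroblast were left out). The median depth was 325 and 324 unique molecular identifiers (UMIs) per nucleus. The classes were made by the authors from the same counts, so every ratio is a description. Of 44 members, 2 were past 2-fold, both higher in neurons, against 10.0% of 8293 genes (2.1% higher, 7.9% lower), with a median log2 ratio of 0.25 for members and -0.04 for all genes. Snap25, which glia are known to express little, was at 2446 CPM in neuronal and 2032 CPM in non-neuronal classes, with a UMI in 58.1% and 52.5% of nuclei. Thinned to 300 UMIs per nucleus the shares were 49.4% and 45.7%.

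The lists of neuronal markers were also high outside neurons, summing to 8189 CPM in neuronal classes and 5302 CPM in non-neuronal classes (5029.5 to 6212 CPM in the single glial and endothelial classes). Snap25 ran from 1926 to 2560 CPM over those classes and from 2055 to 2757 CPM over the ExNeuron classes. The source of neuronal transcripts in the non-neuronal classes was not tested.

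The largest ratio was that of Syn3, a synapsin, at 109.6 CPM (interval 95.8 to 125) in neuronal and 41.6 CPM (25.7 to 63.5) in non-neuronal classes. Syt2 followed at 185 CPM (167 to 204.5) and 89.1 CPM (65.0 to 119). Syt6 was at 29.3 against 15.8 CPM, Rims1 at 1688 against 958 CPM, and Ppfia2 at 679.8 against 408 CPM. Among the most abundant, Syt1 was at 2944 and 1811 CPM, Syp at 864 and 665 CPM, and Rims2 at 863 and 582 CPM. Rims1 encodes the central active zone organiser RIM1.

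The lowest ratios were those of Doc2b (14.9 CPM in neuronal, 21.8 CPM in non-neuronal classes), Syt11 (332 and 437 CPM), Ppfia3 (329 and 384 CPM), Syt3 (76.9 and 81.1 CPM) and Stxbp6 (112 and 117 CPM). For Syt11, a synaptotagmin that does not bind calcium, intervals of 308 to 358 CPM and 382 to 499 CPM did not overlap. It was highest in oligodendrocytes (598 CPM, interval 461 to 762) and microglia (580.3 CPM, interval 338 to 929), where 65 and 17 UMIs were counted.

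**Figure D4:**
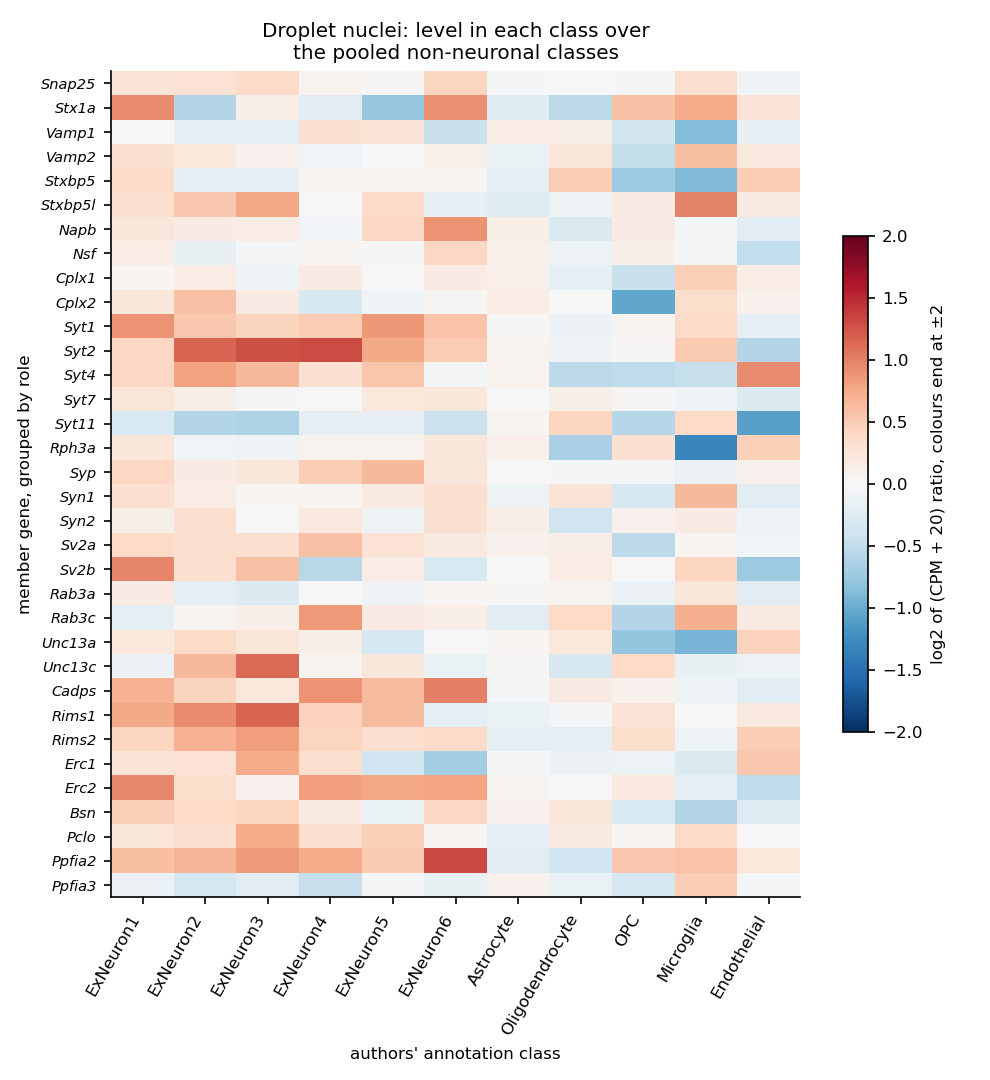
Log2 ratio of (CPM + 20) in each droplet class over the pooled non-neuronal classes, for members with at least 300 UMIs, grouped by role (red higher, blue lower, colours end at 2). Syt2 is red in ExNeuron2 to ExNeuron4, Unc13c and Rims1 are reddest in ExNeuron3, and microglial cells vary with few UMIs.

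Neuronal classes differed from each other in a few members. Unc13c was at 942 CPM (interval 848 to 1043) in ExNeuron3 and 384 CPM (343 to 429) in ExNeuron1, beside 419.5 CPM in non-neuronal classes. Syt9 was at 118 and 42.3 CPM, while Rimbp2 was at 43.6 and 149 CPM. These 3 of 43 members were past 2-fold between the classes, against 11.5% of 8132 genes (5.0% higher, 6.52% lower), and Syt2 (244 against 126 CPM) fell just short. Summed granule markers were at 2204 CPM in ExNeuron3, 1623 CPM in ExNeuron2 and 981 CPM in ExNeuron1, and were 1021 CPM in non-neuronal classes. ExNeuron4 over ExNeuron1 passed for 4 of 43 members, against 12.3% of 8055 genes (6.1% higher, 6.21% lower). They were Rab3c (605 against 282 CPM), Sv2b (162 against 505 CPM), Stx1a (95.9 against 240.5 CPM) and Syt5 (49.6 against 103 CPM). ExNeuron4 also had the highest sum of inhibitory markers, 1352 CPM against 397 to 1071 CPM in the other ExNeuron classes. Stx1a was highest in ExNeuron1 (interval 208 to 276 CPM) and ExNeuron6 (234 CPM, interval 141 to 365), and lowest among neurons in ExNeuron5 (59.999 CPM, interval 25.9 to 118).

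Gene length was set against these values, since nuclei hold unspliced transcripts. Whether reads from unspliced transcripts were counted is not stated, and their share was not measured. Across 44 members, the droplet log2 ratio of neuronal over non-neuronal classes and the genomic span correlated with Pearson's r of 0.43 and Spearman's rho of 0.45. These are descriptions across genes of 1 library, which are not independent replicates. The 22 members of at least 100 kb had a median log2 ratio of 0.40 and the 22 shorter ones 0.21. In plate nuclei the FFPE over frozen ratio and span gave 0.37 and 0.53 across 43 members, and the well fold changes gave values near 0 (-0.07 and -0.11 over 26 members in SCRB-seq, -0.02 and -0.06 over 43 in SMART-Seq2). The 8 longest members had droplet log2 ratios of 0.72 (Erc2, 856 kb), 0.82 (Rims1), 0.70 (Syt1), 0.39 (Unc13c), 0.57 (Rims2), 0.74 (Ppfia2), 0.64 (Cadps) and 1.40 (Syn3, 444 kb). Members of at least 100 kb ranged from -0.06 to 1.40, and shorter ones from -0.55 to 0.89.

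**Figure D5:**
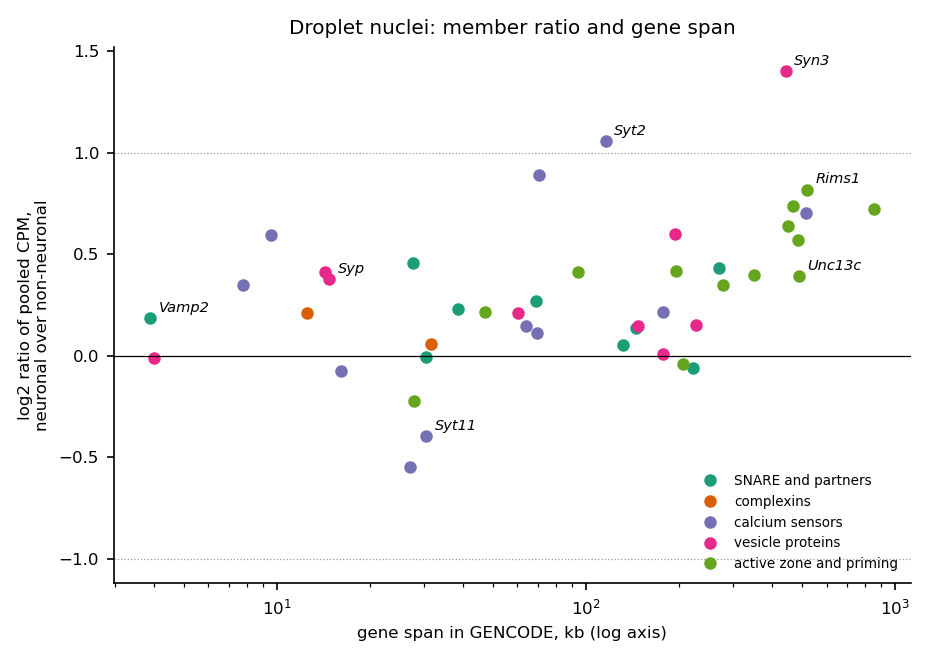
Log2 ratio of pooled CPM, neuronal over non-neuronal droplet classes, against the genomic span of each of 44 members (log axis, kb), coloured by role, with dotted lines at 2-fold. Syn3 and Syt2 lie above the upper line and no member lies below the lower one.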

How the data were processed

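Whole-number counts per gene were used for the bulk wells and the plate nuclei, and whole-number UMI counts for the droplet nuclei, in each case as deposited by the authors. The submitters' processing notes name the builds mm10 and hg19. No aligner, counter or UMI collapsing step for SCRB-seq is named in those notes or in the labels. SCRB-seq tables list mouse genes and 10653 human genes, and only mouse genes entered the totals and tests.

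Wells were tested with edgeR 4.0.16 in R 4.3.3 (TMM scaling, genes kept by filterByExpr at a minimum count of 10, quasi-likelihood test, Benjamini-Hochberg adjustment over all genes tested, threshold 0.05). DESeq2 1.42.0 served as an alternative. FFPE was the mean of the 3 methods. The edgeR fit of the wells was tested on simulated counts, and the other steps were not. Nuclei were summed per arm or class (Python 3.11, scipy 1.17.1), with no test, since each arm is 1 sample. Plates and wells carry no animal names, and the table of batch 3 held 0 nuclei. Of 7031 droplet nuclei, 131 had a sum that differed from the authors' total. No doublet caller was run. Gene positions come from GENCODE for GRCm38, which is mm10.

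The 45 members and all lists were chosen with earlier results of these data known. Any member could be named. Full values were given for members called between methods or between the mean of the methods and frozen wells, and for the 5 largest ratios in each direction and the 5 largest summed counts of each table of nuclei. Alternatives covered scaling, filters, nuclei number, single methods, left-out wells, weights per nucleus and thinning. Beyond the related genes named in the text, a result for a further one is not reported here.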

Additional observations from a re-analysis of the deposited data

Results flagged for a closer look

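For 7 of 33 members tested, against 16.6% of 2511 genes, the FFPE minus frozen difference in SCRB-seq differed between wells of 100 and of 10 nuclei by a test of the interaction itself (edgeR adjusted p under 0.05). The log2 difference of differences was 3.19 for Sv2a, 3.15 for Rab3a, 2.33 for Rph3a, 2.30 for Cplx2, 1.95 for Syn1, 1.88 for Cadps and -1.998 for Erc2. Without the mineral oil wells, Syn1 and Erc2 were still called, Rph3a was not tested, and the others had adjusted p-values of 0.491 (Cplx2), 0.277 (Rab3a), 0.364 (Sv2a) and 0.580 (Cadps).

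Counts on human genes with the names of members, which enter no comparison, were higher in FFPE than in frozen SCRB-seq wells. The 31 human genes held 374 CPM in FFPE, here of all mouse and human counts (1263 of 3376751, exact Poisson 95% interval 354 to 395) and 56.1 in frozen wells (61 of 1088103, interval 42.9 to 72.0). STXBP5 alone held 706 of the FFPE counts and 19 of the frozen ones. The source of these counts was not tested, and neither was whether human genes as a whole differed in the same way. None of the 8 groups of 8 wells had a well that stood apart in the members' share of counts (Dixon's 95% test).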

How the results depend on the processing

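Counts of members called in SCRB-seq method contrasts were small and moved with the setting. With no filter, the share of all genes called also rose, to 18.8% (oil minus heated xylene), 15.9% (heated minus room-temperature xylene) and 16.1% (oil minus room-temperature xylene). Oil minus heated xylene went from 2 to 6 with no filter. Heated minus room-temperature xylene went from 1 to 0 with DESeq2 size factors and in wells of 10 nuclei only, to 2 with the DESeq2 Wald test, to 3 with a minimum count of 3 or with frozen wells in the fit, and to 6 with no filter. The share of all genes called in that contrast was 1.94% in the main fit, 1.30% with size factors and 2.75% in wells of 10 nuclei. It was 3.33% with the Wald test, 6.34% with a minimum count of 3 and 5.89% with frozen wells in the fit. Oil minus room-temperature xylene went from 3 to 1 with size factors, 5 with a minimum count of 3 and 9 with no filter, and Erc1 turned to -0.068 in wells of 100 nuclei only. For all genes the share called in that contrast went from 10.3% to 9.17% with size factors and 12.2% with a minimum count of 3. FFPE minus frozen in SCRB-seq went from 14 of 26 tested to 6 of 18 (1 higher, 5 lower) in wells of 10 nuclei only, against 61.05% of 783 genes. The interaction went from 7 to 11 with size factors (all genes from 16.6% to 29.0%) and to 2 without the mineral oil wells, a setting chosen after seeing the data. FFPE minus frozen in SMART-Seq2 called 3 with heated xylene alone and 3 with room-temperature xylene alone (both chosen after seeing the data), and 4 to 7 with each well left out in turn, against 6. With each well left out, 1.64% to 4.58% of all genes were called, against 4.09%. Method contrasts in SMART-Seq2 stayed at 0 members with each well left out. With the nuclei number as a replicate block, SMART-Seq2 called 6 members for FFPE minus frozen and 0 for each method contrast. Each SMART-Seq2 well's deviation from the mean of its method, in log2(CPM + 1) over 9555 genes, was correlated between wells of different methods. Pairs with the same nuclei number gave -0.000996 to 0.0805 (18 pairs, median 0.021). Pairs with different numbers gave -0.062 to 0.048 (36 pairs, median -0.011). Whether wells of the same number share a preparation cannot be told from these values. Syp in plate nuclei turned from -1.62 to 1.39 by the mean per nucleus, 0.18 with batch 1 as FFPE and 0.047 when thinned. Except where a setting itself sets the number of genes or wells, the cause was not tested. The other 95 alternatives of such counts stayed within 1.5 times. Depth limited the test to 26 of 45 members in SCRB-seq.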
